A study of Mus musculus with 9 samples.

Results

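The nucleus accumbens (NAc) was set against the midpoint of the other 2 regions measured with it, the dorsal striatum (dStr) and the BNST, the bed nucleus of the stria terminalis. For each gene the contrast was the NAc mean minus the average of the BNST and dStr means, on the scale log2(intensity + 16). A gene that changed along a simple gradient from BNST through NAc to dStr, with NAc in the middle, gives a difference of 0 in this contrast. All 9 arrays of the series entered it, 3 titled NAc, 3 titled BNST and 3 titled dStr. Each array was given in the labels as a biological replicate from mouse brain, and every sample was punched from semi-frozen coronal slices of 300 µm cut after isoflurane anaesthesia and decapitation. No allele, transgene or drug treatment was named for any group, and the sources used here do not give strain, age, sex or the pooling of animals. Where replicates did not come from separate animals, the p-values measure only the spread between these samples. A gene was called where its Benjamini-Hochberg adjusted p, over 14208 genes in a limma fit of all 9 arrays, was under 0.05.

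The NAc is the ventral part of the striatum. Like the dStr it is built mainly of GABAergic projection neurons that carry dopamine D1 or D2 receptors, and it differs from the dStr in its stronger input from hippocampus, amygdala and ventral prefrontal cortex and in its role in motivated behaviour. The BNST is a limbic nucleus of the extended amygdala that lies caudal and dorsal to the NAc, borders the septum and the lateral ventricle, and is rich in peptide neurons. NAc shell, the outer division of the NAc, merges caudally with the extended amygdala, so genes of the NAc can follow the dStr, the BNST or neither.

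The arrays of a region did not resemble one another equally. Median intensities ran from 93.9 to 102, and between 2270 and 2698 probe sets per array stood at the lowest value of 15. Across genes, which are not independent replicates, Pearson's r was 0.964 between NAc 2 and NAc 3, and 0.938 and 0.909 between NAc 1 and these. BNST 1 correlated with NAc 3 at r = 0.965, above its 0.934 with BNST 2 and 0.948 with BNST 3. The departure of a NAc array from the midpoint had an SD over genes of 0.41 on NAc 1, 0.27 on NAc 2 and 0.31 on NAc 3 (log2). The median level of ribosomal protein genes was 11.0 on NAc 1, 11.3 on NAc 2 and 11.7 on NAc 3 (log2), and it was lowest on BNST 2 at 10.8. Their part in the results was not tested. Results are therefore given with arrays left out, and BNST 1 and NAc 1 were also left out together.

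Genes known to mark the regions were summed on each array. The lists were chosen with earlier results of these data known, so the sums describe the arrays and are no independent check of the labels. The summed intensity of 31 projection neuron genes of the whole striatum was 10829 to 23316 on the BNST arrays, 38724 to 52566 on the NAc arrays and 64399 to 70896 on the dStr arrays. The sum of 17 ventral striatum and accumbens genes was 14443 to 17019 in NAc, 9613 to 13290 in BNST and 5649 to 6613 in dStr. The sum of 13 septal and extended amygdala markers was 6237 to 7533 in BNST, 1810 to 3914 in NAc and 1645 to 1668 in dStr. None of these ranges overlapped between NAc and another region. The cortical markers Slc17a7, Neurod6 and Tbr1 did not pass the filter on low values, but 14 other cortical and claustral markers did. Their summed intensity was 10197 to 12089.5 in NAc, 5116 to 7752 in BNST and 9412 to 10810.5 in dStr. For this sum NAc lay above BNST and overlapped dStr. In bulk tissue, fewer cells of a type and less RNA per cell cannot be told apart.

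Few genes departed from the midpoint. Of the 14208 genes, 55 were called (0.387%), 30 with NAc above the midpoint (0.211%) and 25 with NAc below it (0.176%). At an unadjusted p under 0.05 there were 844 genes (5.94%), 511 above and 333 below. By comparison, 318 genes (2.24%) were called between NAc and BNST, 291 (2.05%) between NAc and dStr and 2027 (14.3%) between BNST and dStr, in the same fit and with shared arrays. The median difference over all genes was 0.02 (log2). Of the 55 called genes, 31 differed from the midpoint by at least 1 on the log2 scale. The smallest absolute difference among them was 0.67.

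The count depended on single arrays. Leaving out BNST 1, BNST 2 or BNST 3 gave 80, 30 or 22 calls. Leaving out NAc 1, NAc 2 or NAc 3 gave 74, 2 or 46, and leaving out dStr 1, dStr 2 or dStr 3 gave 18, 26 or 22. With BNST 1 and NAc 1 left out together it was 319, with 245 above and 74 below the midpoint, and all 55 genes were among them. The 2 genes called without NAc 2 were Cartpt and Coch, and these 2 were also the ones called in each of the 9 fits that left out 1 array. Another 16 genes lost the call only without NAc 2, and 37 lost it without that array and at least 1 other. None of the 55 differences changed sign in any fit that tested the gene.

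**Figure D1:**
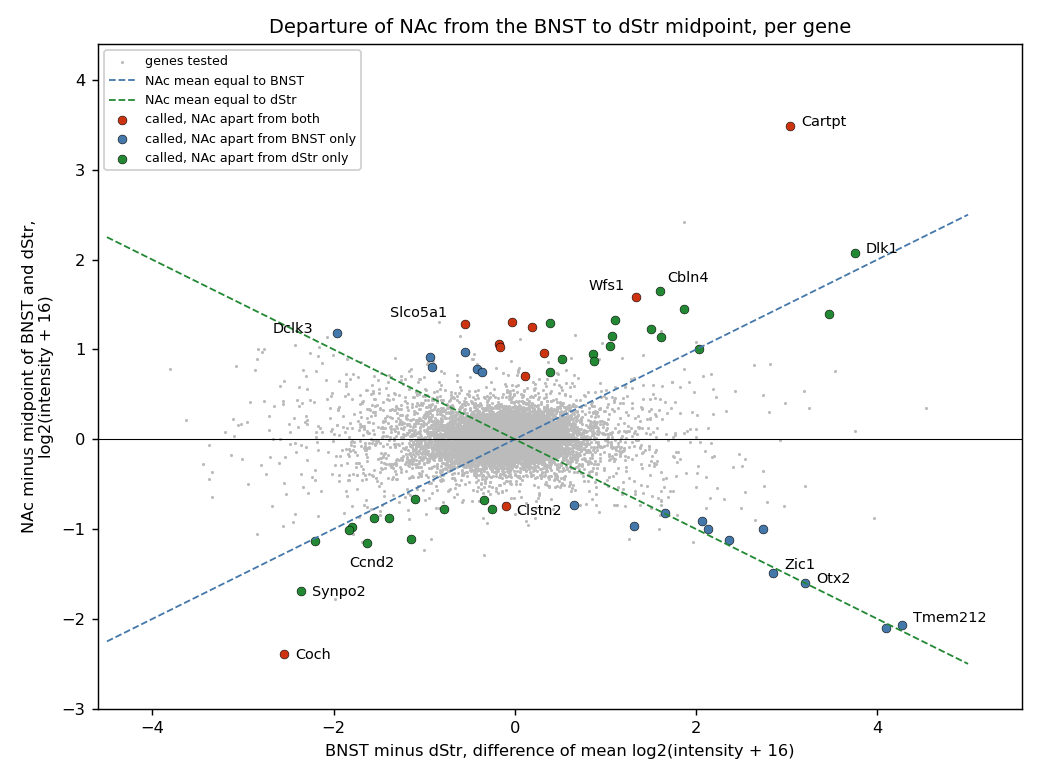
Each point is a gene, with the difference between the BNST and dStr means on the x axis and the NAc mean minus their midpoint on the y axis, both in log2(intensity + 16). Colours mark the 55 called genes by which region NAc also differed from in the pairwise tests, and points above or below both dashed lines have a NAc mean outside the range of the other 2 regions. Cartpt and Coch lie farthest above and below the midpoint among the called genes.

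Most genes that distinguish BNST from dStr had an intermediate level in NAc. Of the 2027 such genes, 1859 (91.7%) had a NAc mean between the BNST and dStr means. The position of NAc on the way from BNST to dStr, with 0 at the BNST mean and 1 at the dStr mean, had a median of 0.51 and quartiles of 0.33 and 0.69. For the 702 genes higher in BNST the median position was 0.47, and for the 1325 genes higher in dStr it was 0.52. NAc lay beyond the BNST mean for 79 of the 2027 genes and beyond the dStr mean for 88. The contrast called 39 of them (1.92%), and the other 16 called genes were outside this gradient set. These positions are a description of group means and carry no test. The genes were chosen for a gap between BNST and dStr on the same arrays, which in itself favours a NAc mean between them. Over all genes tested, the NAc mean was above both other means in 25% and below both in 18.3%.

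**Figure D2:**
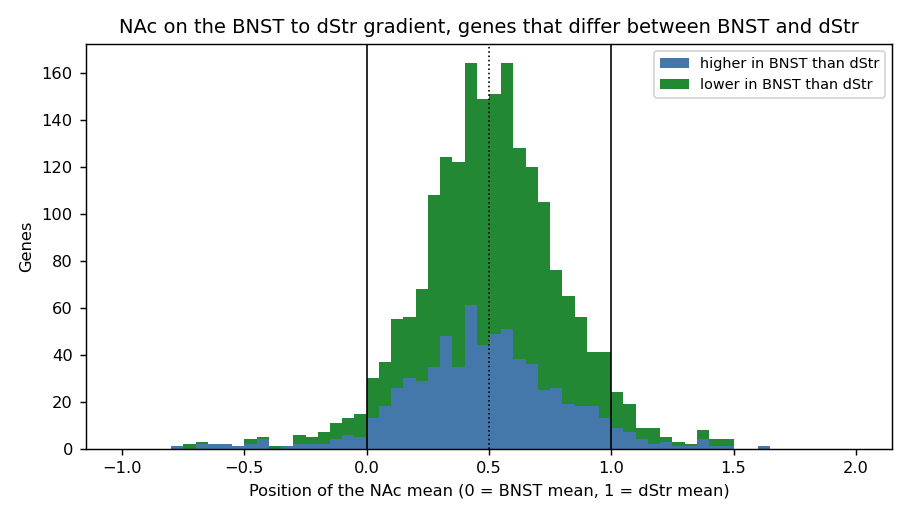
Histogram of the position of the NAc mean between BNST (0) and dStr (1) for the genes called between BNST and dStr, with stacked bars for genes higher and lower in BNST and a dotted line at the midpoint. The 2027 values centre on a median of 0.51, and 91.7% lie between 0 and 1.

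Called genes fell into groups by the pairwise tests of the same fit, which share the NAc arrays with the main contrast. NAc differed from both other regions in 11 genes, 9 with NAc higher (0.0633% of genes tested) and 2 with NAc lower (0.0141%), and it differed from dStr but not BNST in 27, and from BNST but not dStr in 17. A gene that differs from 1 region and not from the other is not shown to be equal to the other. The NAc mean was above both other means in 28 called genes, below both in 18 and between them in 9. Over all 14208 genes, whatever their p, the NAc mean was above both in 25% and below both in 18.3%. All 3 NAc arrays exceeded all 6 other arrays in 20 of the 55 genes, against 168 of all genes (1.18%), and all 3 fell under all 6 others in 8, against 71 of all genes (0.5%). The 55 genes were called on these same arrays. Their larger shares therefore follow in part from the call and are no added support for it.

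The 9 genes at which NAc was higher than both regions in the pairwise tests were led by Cartpt, the precursor of the CART peptides, which are made by accumbens projection neurons and act on feeding and reward. Cartpt read 1412, 1125 and 1065 on NAc 1 to 3, 424, 204 and 290.1 on BNST 1 to 3, and 20.7, 31.1 and 15 on dStr 1 to 3. Every NAc array was above every BNST array, and every BNST array above every dStr array. The difference from the midpoint was 3.48 on the log2 scale (SE 0.22, limma adjusted p = 0.00017). Since dStr was at or near the lowest value, the size depends on the constant of 16, and it was 3.88 with a constant of 1 and 2.84 with 64. NAc exceeded BNST by 1.96 (adjusted p = 0.0036) and dStr by 5.00 (adjusted p = 1.1e-05). Its adjusted p ran from 4.1e-05 to 0.0037 with 1 array left out.

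The promoter windows of the 2 genes that kept the call with each array left out are shown here, since they stand at opposite ends of the contrast. Each window runs from 250 bases before the annotated start to 50 after it, 5′ to 3′ on the gene's strand, from RefSeq on build GRCm38.p6. Cartpt lies on the minus strand at chr13:99900634-99900933 and Coch on the plus strand at chr12:51593091-51593390. Capitals mark the octamer TGACGTCA, the full cyclic AMP response element, which reads the same on both strands.

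Cartpt: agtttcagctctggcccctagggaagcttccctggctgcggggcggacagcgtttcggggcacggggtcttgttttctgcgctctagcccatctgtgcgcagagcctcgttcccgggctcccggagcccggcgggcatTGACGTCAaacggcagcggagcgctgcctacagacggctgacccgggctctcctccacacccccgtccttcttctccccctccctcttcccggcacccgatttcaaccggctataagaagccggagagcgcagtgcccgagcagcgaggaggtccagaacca

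Coch: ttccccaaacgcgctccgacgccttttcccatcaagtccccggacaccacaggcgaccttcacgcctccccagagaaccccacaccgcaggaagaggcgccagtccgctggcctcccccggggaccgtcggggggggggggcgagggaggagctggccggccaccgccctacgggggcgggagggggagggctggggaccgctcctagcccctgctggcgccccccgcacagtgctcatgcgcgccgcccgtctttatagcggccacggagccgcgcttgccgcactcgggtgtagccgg

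The Cartpt window held the octamer once, with its first base 112 bases before the start, and the Coch window did not hold these letters. Of the tested genes with a window in the table, 363 of 11357 (3.2%) held the octamer. Among the called genes 2 of the 41 with a window held it, Cartpt and the calsyntenin gene Clstn2. A match is a description of letters and not of binding.

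Wfs1, which encodes the endoplasmic reticulum membrane protein wolframin, had the next largest excess among the 9 genes with NAc above both regions in both pairwise tests. It read 2731, 2875 and 2335 in NAc, 1789.6, 1067 and 1411 in BNST and 527, 632 and 481 in dStr. The 3 regions did not overlap. The difference from the midpoint was 1.58 (SE 0.17, limma adjusted p = 0.0053), with 0.91 over BNST and 2.25 over dStr. It lost the call only without NAc 2 (adjusted p = 0.052).

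Ramp3 showed a different shape, in that BNST and dStr were close to each other and NAc stood above, whereas for Slco5a1 BNST also lay below dStr. Ramp3, a receptor activity-modifying protein that changes the ligand preference of calcitonin-family receptors, read 178, 300.4 and 261 in NAc, 108, 79.7 and 75.6 in BNST and 106, 84.6 and 79.3 in dStr. Its difference was 1.31 (SE 0.17, limma adjusted p = 0.013, and 0.1 without NAc 2). The receptor gene Calcr, with which Ramp3 can pair, read 21.6, 236 and 228 in NAc, 160.2, 93.2 and 83.9 in BNST and 15, 15.4 and 15 in dStr, and was not called (difference 1.09, SE 0.52, adjusted p = 0.9). NAc 1 was low for Calcr, and its adjusted p was 0.005 without that array. Slco5a1, an organic anion transporter family member, read 214, 206 and 119 in NAc, 46, 51.8 and 48.3 in BNST and 82.7, 77.3 and 75.3 in dStr. Its difference was 1.29 (SE 0.17, limma adjusted p = 0.011, and 0.099 without NAc 2). The BNST and dStr arrays of Slco5a1 did not overlap, with BNST minus dStr at -0.55 (limma adjusted p = 0.087).

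Pdyn, the precursor of the dynorphin peptides that act at kappa opioid receptors, was the only called gene of the 31 projection neuron genes of the whole striatum. It read 718, 616 and 514 in NAc, 272, 230.0 and 303 in BNST and 330.1, 336 and 249 in dStr. All NAc arrays were above all others, by 1.06 over the midpoint (SE 0.15, limma adjusted p = 0.019). The BNST and dStr arrays overlapped for Pdyn. Its call was lost without NAc 2 (adjusted p = 0.11) and without dStr 1 (0.062).

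Stard5, a lipid-binding START domain protein, read 524, 319 and 285 in NAc, against 132, 158 and 174 in BNST and 145, 155 and 103 in dStr. The excess over the midpoint was 1.25 (SE 0.20, limma adjusted p = 0.033). NAc 1 was the highest array for Stard5. The call was kept without BNST 1, NAc 1 or NAc 3 and lost without each of the other 6 arrays (adjusted p up to 0.11). It was also lost with the mean of its probe sets (0.79, adjusted p = 0.059) and with the midpoint over intensities (adjusted p = 0.054).

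The other 3 of these 9 genes were Perp, a membrane protein of cell junctions, Ttc39c, a tetratricopeptide repeat protein, and Lin7a, a scaffold protein of synaptic membranes. Perp read 126, 128 and 77 in NAc and 35.2 to 59.5 on the 6 other arrays, a difference of 1.03. Ttc39c read 212, 201 and 221 in NAc and 78.7 to 130.2 elsewhere, a difference of 0.96. Lin7a read 1211, 1294 and 1133 in NAc and 656 to 835 elsewhere, a difference of 0.70. Ttc39c lost its call only without NAc 2 (limma adjusted p = 0.078), whereas Perp and Lin7a each kept theirs in 1 of the 9 fits (highest adjusted p 0.24 for both, without NAc 2). Perp kept it without NAc 3, and Lin7a without BNST 1.

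**Figure D3:**
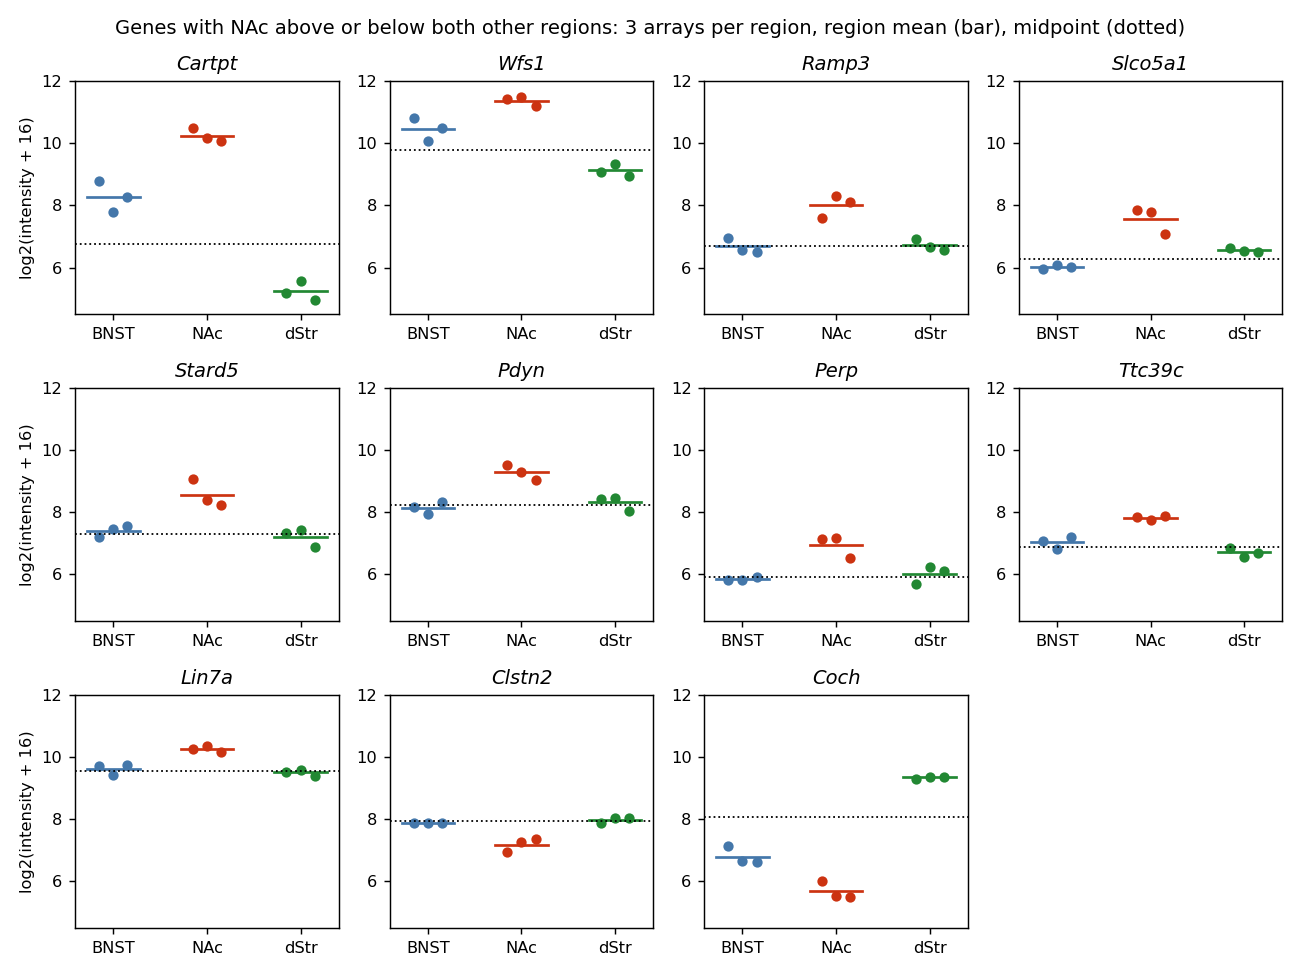
Level on each of the 9 arrays, as log2(intensity + 16), for the 11 called genes at which NAc also differed from BNST and from dStr in the pairwise tests, with arrays as points, region means as bars and the BNST and dStr midpoint as a dotted line. NAc is highest in 9 genes and lowest in Coch and Clstn2.

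Coch was the gene farthest below the midpoint. It encodes cochlin, a secreted extracellular matrix protein best known from the inner ear. It read 48.8, 29.7 and 29.1 in NAc, 124, 83.5 and 82.6 in BNST and 612, 644 and 639.7 in dStr. The regions did not overlap, and NAc was the lowest of the 3. The difference was -2.39 (SE 0.16, limma adjusted p = 0.00018), and NAc was 2.17-fold below BNST and 12.7-fold below dStr on the scale of intensity + 16. With 1 array left out, the adjusted p ran from 0.00013 to 0.0038.

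Clstn2, a calsyntenin of the postsynaptic membrane, was the other gene called below both regions in the pairwise tests. It read 106, 137 and 147 in NAc, 217, 219.8 and 219 in BNST and 218, 244 and 247 in dStr. The difference was -0.74 (SE 0.12, limma adjusted p = 0.034). The call was kept without BNST 1 or NAc 3 and lost without each of the other 7 arrays (adjusted p up to 0.14).

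The largest group above the midpoint comprised 15 genes at which NAc differed from dStr and not from BNST. In all 15 genes the NAc arrays did not overlap the dStr arrays, and in 6 of them they also did not overlap the BNST arrays. These counts follow in part from the call and the pairwise tests on the same arrays. Their share over all genes was not counted, so they only describe the group. Dlk1, an imprinted Notch-ligand-like membrane protein, read 242, 728 and 597 in NAc, 696, 330.3 and 303 in BNST and 15, 17.6 and 15 in dStr. NAc 1 was the lowest NAc array and BNST 1 the highest BNST array. The difference from the midpoint was 2.07 (SE 0.34, limma adjusted p = 0.036), and the dStr arrays stood at or near the lowest value, so the size depends on the constant of 16. The call was kept without BNST 1 or NAc 1 and lost without each of the others (adjusted p up to 0.21). The mean of its 2 probe sets gave 1.19 (adjusted p = 0.12), and a constant of 64 gave 1.47 (adjusted p = 0.10). The call was also lost when the midpoint was taken over intensities (adjusted p = 0.52), where a mixture of equal parts BNST and dStr is the reference.

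Cbln4, a secreted synaptic organiser of the cerebellin family, read 177, 351 and 279 in NAc, 153, 116 and 143 in BNST and 31.2, 56.5 and 21 in dStr. All NAc arrays were above all others, and the difference was 1.65 (SE 0.24, limma adjusted p = 0.02). The call was lost without BNST 2 (0.053), BNST 3 (0.068), NAc 2 (0.13), NAc 3 (0.064) or dStr 1 (0.08). Lrrn3, a leucine-rich repeat membrane protein of neurons, read 451, 613 and 536 in NAc, 372, 257 and 294 in BNST and 102, 144 and 157 in dStr. Its arrays did not overlap between any regions, and the difference was 1.32 (SE 0.17, adjusted p = 0.011, and 0.096 without NAc 2). These 2 genes had a NAc mean above BNST by 0.85 and 0.77, with adjusted p of 0.18 and 0.075 for that pair.

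Signalling genes were among the same 15. Pde1a, the calcium and calmodulin-dependent phosphodiesterase that breaks down cyclic nucleotides, read 443, 844 and 729 in NAc, 571, 488 and 327 in BNST and 123, 96.1 and 118 in dStr, a difference of 1.45 (SE 0.22, limma adjusted p = 0.029). NAc 1 lay within the BNST range. Chn2, a GTPase-activating protein for Rac, read 708, 703 and 408 in NAc, 342, 362 and 435 in BNST and 178, 188 and 151 in dStr, a difference of 1.15 (SE 0.18, adjusted p = 0.033). Here NAc 3 lay within the BNST range. Pde1a kept its call without BNST 1 or NAc 1, and Chn2 without BNST 1 or NAc 3 (highest adjusted p 0.17 and 0.19, without NAc 2). With the midpoint over intensities neither was called (adjusted p = 0.082 and 0.051).

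Marchf1, a membrane-bound ubiquitin ligase, read 397, 429 and 263 in NAc, 272, 261 and 224 in BNST and 80.3, 84.9 and 71.4 in dStr. The difference was 1.22 (SE 0.16, limma adjusted p = 0.011, and 0.096 without NAc 2). Olfm3, a secreted olfactomedin protein, read 602, 1100.1 and 861 in NAc, 485, 303 and 364 in BNST and 256, 389 and 233 in dStr. The difference was 1.30 (SE 0.23, adjusted p = 0.046), and it was kept only without BNST 1 or NAc 1 among the 9 fits (highest adjusted p 0.25, without NAc 2). Plcxd3, a phospholipase C-like protein, read 783, 774 and 594 in NAc, 668, 608 and 438 in BNST and 182, 198 and 145 in dStr, a difference of 1.14 (adjusted p = 0.021). It lost the call without NAc 2 (0.15), dStr 1 (0.074) or dStr 3 (0.063).

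In 2 of the 15 genes the NAc mean lay between the other means, close to that of BNST. The heparan sulfate 6-O-endosulfatase gene Sulf1 read 208, 182 and 133 in NAc, 221, 132 and 178 in BNST and 28.4, 37 and 26.1 in dStr. Its position was 0.01 and its difference 1.00 (limma adjusted p = 0.049). It is uncertain, since 1 of its 3 probe sets went the other way, the mean of its probe sets gave 0.36 (adjusted p = 0.5), and the call was kept without BNST 1 or NAc 3 only (highest adjusted p 0.26). The other was 4930432J09Rik, with dStr at the lowest value on all 3 arrays, where the size is set by the constant. It read 262, 274 and 233 in NAc and 246, 384 and 368 in BNST, a difference of 1.40 (adjusted p = 0.0053). The call was lost with the midpoint over intensities (adjusted p = 0.46). There the difference was 0.41 in units of the gene's mean intensity, which is not a log2 value. Its call was also lost without NAc 2 (0.052).

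The remaining genes of this group were Fam126a, a subunit of a phosphatidylinositol kinase complex, Vstm2a, an immunoglobulin-domain protein, Mpped1, Cpne6, a calcium-dependent membrane-binding copine, and Pid1, a phosphotyrosine interaction domain protein. Their differences ran from 0.75 for Pid1 to 1.04 for Fam126a, with limma adjusted p from 0.038 to 0.046. NAc arrays read 328 to 558 for Fam126a and 119 to 142 in dStr. For Cpne6, NAc read 497 to 636, BNST 358 to 469 and dStr 176 to 242. Each of the 5 kept its call in 1 or 2 of the 9 fits, and all 5 lost it without NAc 2 (highest adjusted p from 0.22 to 0.25). Fam126a, Vstm2a and Cpne6 kept it without BNST 1 or NAc 1, Mpped1 without BNST 1, and Pid1 without NAc 3. Fam126a and Vstm2a were not called with the midpoint over intensities (adjusted p = 0.08 and 0.055).

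At 6 genes NAc was above the midpoint and differed from BNST and not from dStr. The NAc mean was above the dStr mean for all 6, and the NAc and dStr arrays did not overlap in 5. Here too the share over all genes was not counted, and the genes were called on the same arrays. Dclk3, a doublecortin-like kinase enriched in striatum, read 632, 926 and 823 in NAc, 675, 628 and 738 in dStr and 223, 119 and 162 in BNST, with overlap between NAc and dStr. Its difference was 1.18 (SE 0.18, limma adjusted p = 0.03). Robo1, a receptor for Slit guidance proteins, read 383, 447 and 334 in NAc, 208, 234 and 256 in dStr and 199, 128 and 141 in BNST, a difference of 0.97 (adjusted p = 0.033). Dclk3 kept its call without BNST 1, BNST 2 or NAc 1, and Robo1 without BNST 1 or NAc 3 (highest adjusted p 0.19 for both, without NAc 2). The mean of the Robo1 probe sets gave 0.41 (adjusted p = 0.26).

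Syndig1, a synaptic membrane protein that binds AMPA receptors, read 679, 652 and 566 in NAc, 489, 502 and 487 in dStr and 282, 249 and 234 in BNST. The difference was 0.80 (SE 0.11, limma adjusted p = 0.016), lost without BNST 3 (0.06), NAc 2 (0.1), dStr 1 (0.068) or dStr 3 (0.059). Gulp1, an adaptor for the engulfment of dying cells, read 212, 330.3 and 264 in NAc, 203, 188 and 181 in dStr and 109.9, 79.2 and 89.1 in BNST, a difference of 0.91 (adjusted p = 0.037). It kept the call without BNST 1 or NAc 1 only (highest adjusted p 0.19, without NAc 2). The zinc-finger transcription factor gene Bcl11a read 654, 713 and 856 in NAc, 442, 541 and 488 in dStr and 423, 322 and 344 in BNST, a difference of 0.79 (adjusted p = 0.043). It is uncertain, since 1 of its 5 probe sets went the other way and their mean gave 0.45 (adjusted p = 0.29), and the call was kept without BNST 1 or NAc 1 only (highest adjusted p 0.19).

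The protocadherin Pcdhb9 read 230.2, 276 and 210.2 in NAc, 142, 159 and 164 in dStr and 118, 109 and 122 in BNST. Its difference was 0.75 (limma adjusted p = 0.03, up to 0.17 without NAc 2), and it kept the call without BNST 1, NAc 1 or NAc 3. Genes of the clustered protocadherin family are close copies of one another, and their probe sets can share signal.

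Below the midpoint, 11 genes differed between NAc and BNST and not between NAc and dStr. Each of them was high in BNST and low in NAc and dStr. The NAc arrays overlapped the dStr arrays in 10 of the 11, and in all 11 they were apart from the BNST arrays. Both counts follow in part from the pairwise tests that formed the group, and their share over all genes was not counted. Tmem212, a gene of ciliated ependymal cells, read 561, 371 and 936 in BNST, 19.3, 15 and 15 in NAc and 15 on each dStr array. Ccdc153, another gene of motile cilia, read 644, 379 and 1201 in BNST, 16, 26.3 and 25.8 in NAc and 34.7, 24.4 and 15 in dStr. Otx2, a homeobox gene of choroid plexus and midbrain, read 372, 209 and 249.7 in BNST and stood at 15 on all 6 other arrays.

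The differences from the midpoint were -2.07 for Tmem212 (SE 0.23, limma adjusted p = 0.0053), -2.10 for Ccdc153 (SE 0.30, adjusted p = 0.02) and -1.60 for Otx2 (SE 0.16, adjusted p = 0.0048). The positions of NAc were 0.99, 1.01 and 1.00, at the dStr mean. With a region at the lowest value these sizes depend on the constant of 16. For Tmem212 and Otx2, NAc and dStr were both at or near that value, so a position near 1 is set by it. Arrays held at that value show no spread, so the SE and adjusted p depend on it too. Such genes could pass the filter only through the BNST arrays. The same limits hold for Enkur, Sp8, Sytl4 and Fhad1 below. None of Tmem212, Ccdc153 and Otx2 was called with the midpoint over intensities (adjusted p = 0.31, 0.53 and 0.081). Tmem212 and Otx2 also lost the call without NAc 2 (0.054 and 0.052), and Ccdc153 without NAc 2 (0.1), NAc 3 (0.052), dStr 1 (0.074) or dStr 2 (0.071).

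Ependymal and choroid plexus genes as a list had 5 of 18 tested members called below the midpoint and 0 above, with a median difference of -0.25, where all tested genes had 25 of 14208 below (0.176%) and a median of 0.02. The called members were Tmem212, Ccdc153, Otx2, Enkur and Mia. Of 26 listed members 18 passed the filter, and Tmem212, Otx2 and Enkur could do so only through the BNST arrays. The list was also drawn up with earlier results of these data known. The count is therefore set in part by the filter and the choice of list, and is no independent support. Enkur, a protein of motile cilia, read 133, 112 and 197 in BNST, 15, 18.2 and 15.6 in NAc and 15 on each dStr array. Mia read 303, 294 and 349 in BNST, 83.2, 100.1 and 92.7 in NAc and 139.5, 127 and 89.8 in dStr. The summed intensity of the 18 genes was 3790 to 6085 in BNST, 1979 to 2220 in NAc and 1893 to 2108 in dStr. Ttr, the most abundant choroid plexus transcript, read 621, 277 and 340.1 in BNST, 292, 276 and 304 in NAc and 271, 308 and 302 in dStr, and was not called (difference -0.21, SE 0.21, limma adjusted p = 0.999). Without NAc 2, the highest adjusted p was 0.096 for Enkur and 0.1 for Mia. Enkur lost the call with the midpoint over intensities (0.11) and with a constant of 64 (0.053). Enkur was also lost without dStr 1 (0.062) or dStr 3 (0.0502), and Mia without BNST 3 (0.077), NAc 3 (0.058), dStr 1 (0.074) or dStr 2 (0.076). How much ventricular lining each punch held was not tested.

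The 6 other genes of these 11 were Zic1, Sp8, Sytl4, Asb4, Fhad1 and Mpdz. Zic1, a zinc-finger factor of septum and medial forebrain, read 2684, 2028 and 2395 in BNST, 184, 291 and 489.6 in NAc and 291, 317 and 332 in dStr, a difference of -1.49 (SE 0.24, limma adjusted p = 0.034). Sp8, a zinc-finger factor of developing forebrain, read 117, 103 and 122 in BNST, 15, 16.5 and 22.1 in NAc and 15 on each dStr array, a difference of -0.91 (adjusted p = 0.011). Sytl4, a docking protein of dense-core granules, read 124, 132 and 106 in BNST, 15, 15.8 and 18.9 in NAc and 15, 15 and 15.5 in dStr, a difference of -1.001 (adjusted p = 0.0053). NAc and dStr overlapped in all 3. Sp8 and Sytl4 lost the call only without NAc 2 (0.094 and 0.052), and Zic1 kept it without BNST 1, NAc 1 or NAc 3 (highest adjusted p 0.19, without NAc 2).

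Asb4, an imprinted gene with a role in hypothalamic neurons, read 187, 226 and 215 in BNST, 15, 34.5 and 37.1 in NAc and 15, 22.4 and 16.2 in dStr. Its difference was -0.996 (limma adjusted p = 0.049), kept without BNST 1 or NAc 1 only (highest adjusted p 0.15). NAc 1 and dStr 1 stood at the lowest value, so the size of the Asb4 difference depends on the constant of 16. The call was kept in 5 of 10 other settings. It was lost, among others, with a constant of 1 (adjusted p = 0.15), no filter (0.11) and the filter at the 60th percentile (0.052). Fhad1 read 81.5, 79.4 and 84.1 in BNST and 15 to 15.7 on the 6 other arrays, a difference of -0.82 (adjusted p = 0.0077, and 0.066 without NAc 2). Mpdz, a protein with many PDZ domains, read 287, 267 and 260.4 in BNST, 112, 142 and 115 in NAc and 147, 199 and 158 in dStr, a difference of -0.73 (adjusted p = 0.046). Its call was lost with any 1 array left out (adjusted p from 0.059 to 0.13) and 1 of its 4 probe sets went the other way, so it is uncertain. The mean of its probe sets gave -0.17 (adjusted p = 0.96).

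The last group held 12 genes below the midpoint at which NAc differed from dStr and not from BNST. The dStr mean was the highest and the NAc mean the lowest in all 12. For Pwwp3b and Anxa6, BNST and dStr were not called apart, with BNST minus dStr at -0.25 and -0.34 (limma adjusted p = 0.3 and 0.11). The NAc arrays were apart from the dStr arrays in all 12 and from the BNST arrays in 5. As for the other groups, these counts follow in part from the tests that formed it and have no share over all genes beside them. Synpo2, an actin-binding protein, read 328, 299 and 314 in dStr, 40.8, 34.1 and 16.4 in NAc and 64.2, 41.1 and 41.5 in BNST. The difference was -1.69 (SE 0.19, limma adjusted p = 0.0053, and 0.052 without NAc 2), with 1 of its 2 probe sets going the other way.

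Ccnd2, a cyclin of the G1 phase, read 821, 755 and 925 in dStr, 161, 199 and 248 in NAc and 308, 212 and 263 in BNST. The difference was -1.16 (SE 0.16, limma adjusted p = 0.015), lost without BNST 3 (0.059), NAc 2 (0.1), dStr 1 (0.063) or dStr 3 (0.052). Abhd11os, a transcript from the opposite strand of Abhd11, read 271, 168 and 212 in dStr, 31.8, 31.4 and 35.3 in NAc and 34.7, 28.8 and 38.1 in BNST. Its difference was -1.13 (SE 0.15, adjusted p = 0.011, 0.099 without NAc 2 and 0.051 with the midpoint over intensities), and NAc lay at a position of -0.01. Arg2, the mitochondrial arginase, read 150.3, 123 and 182 in dStr, 27.8, 31 and 24.8 in NAc and 27.9, 33.8 and 30.8 in BNST, a difference of -1.01 (adjusted p = 0.011, and 0.078 without NAc 2).

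Lratd2 read 259, 179 and 221 in dStr, 61.4, 63.1 and 47 in NAc and 96.4, 67.7 and 108 in BNST, a difference of -1.11 (limma adjusted p = 0.021). Onecut2, a homeodomain transcription factor, read 385, 318 and 302 in dStr, 109, 118 and 81.4 in NAc and 130.5, 121 and 102 in BNST, a difference of -0.87 (adjusted p = 0.036). Nrgn, the calmodulin-binding postsynaptic protein neurogranin, read 2015, 2266 and 2250.3 in dStr, 872, 1004 and 1014 in NAc and 1476, 1037 and 1294 in BNST, a difference of -0.77 (adjusted p = 0.043). NAc lay under all other arrays for Lratd2 and Nrgn, and overlapped BNST for Onecut2. Lratd2 lost its call without BNST 3, NAc 2, NAc 3, dStr 1 or dStr 3 (adjusted p up to 0.1), Onecut2 kept it without BNST 1 or NAc 1, and Nrgn kept it without BNST 1 or BNST 2 (highest adjusted p 0.1 for Onecut2 and 0.19 for Nrgn). The mean of the Onecut2 probe sets gave -0.95 (adjusted p = 0.18).

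The remaining 5 were Arhgap15, a GTPase-activating protein for Rac, Rassf4, a Ras-association domain protein, Pwwp3b, Anxa6, a calcium-dependent phospholipid-binding annexin, and the interleukin-17 receptor subunit gene Il17rc. Arhgap15 read 116, 118 and 107 in dStr, 20.4, 29.2 and 26.7 in NAc and 27.5, 27.4 and 29.5 in BNST, a difference of -0.87 (limma adjusted p = 0.011, and 0.052 without NAc 2). Rassf4 read 122 to 123 in dStr, 15.1 to 30 in NAc and 15 to 30.9 in BNST. Its difference of -0.98 (adjusted p = 0.038) became -0.07 (adjusted p = 1) with no filter on low values, when another probe set stood for the gene. Differences were -0.78 for Pwwp3b, -0.68 for Anxa6 and -0.67 for Il17rc, with adjusted p from 0.038 to 0.049. Anxa6 is uncertain, since 2 of its 3 probe sets went the other way and their mean gave -0.21 (adjusted p = 0.87). Rassf4, Pwwp3b and Anxa6 kept the call in 1 of the 9 fits, without BNST 1, and Il17rc in none (adjusted p from 0.055 to 0.24).

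**Figure D4:**
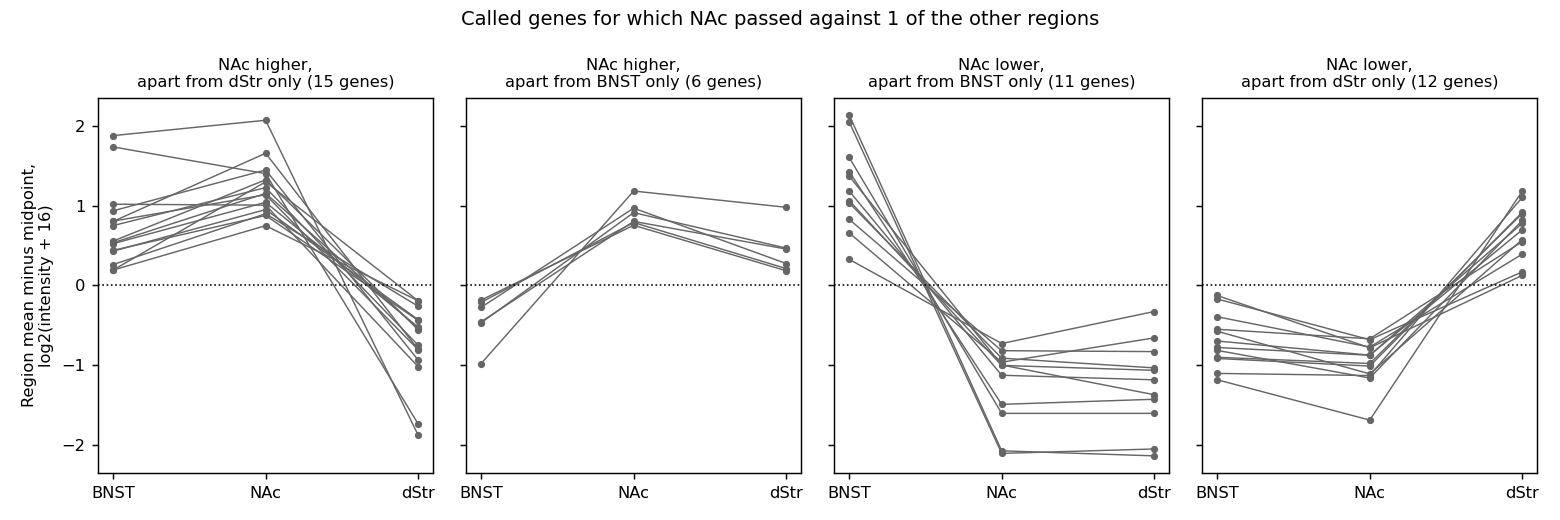
Region means minus the midpoint, in log2(intensity + 16), for the called genes at which NAc differed from 1 of the other regions, each line being a gene from BNST through NAc to dStr. The panels hold, from the left, 15 genes with NAc higher and apart from dStr, 6 higher and apart from BNST, 11 lower and apart from BNST, and 12 lower and apart from dStr.

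Lists of genes drawn from general knowledge of these tissues, with earlier results of these data known, were described by their counts and medians, which are therefore not independent of the data. Over all genes 0.211% were called above the midpoint and 0.176% below, and these shares are the background for each list count that follows. Together 627 of 793 listed symbols were tested, and 22 distinct genes of them were called. The ventral striatum and accumbens genes were chosen with their known position in mind and had 5 of 17 members called above the midpoint (0.211% of all genes), 0 below, and a median difference of 1.00 against 0.02 over all genes. The called members were Cartpt, Dlk1, Cbln4, Wfs1 and Stard5, of which Cartpt alone kept the call in every fit with 1 array left out.

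Other members of that list had large differences with wide spread and were not called. Trhr, the receptor for thyrotropin-releasing hormone, read 984, 403 and 126 in NAc, 118, 145 and 109 in BNST and 15, 42.1 and 15.3 in dStr. NAc 1 was far above NAc 3, which overlapped BNST, and the difference of 2.42 had an SE of 0.48 (limma adjusted p = 0.084). It was called without NAc 3 (adjusted p = 0.009). Crym, a thyroid hormone-binding protein, read 4163, 4331 and 3579 in NAc, 1614, 683 and 1591 in BNST and 1938, 2113 and 2482 in dStr. All NAc arrays were above all others, with a difference of 1.30 (SE 0.25, adjusted p = 0.068). It was called without BNST 1 (0.039) or BNST 2 (0.014), the latter being its lowest array. The retinoic acid receptor gene Rarb had a difference of 1.00 (SE 0.23, adjusted p = 0.16, and 0.049 without NAc 3), with NAc at 721, 682 and 383.

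Tac2, the neurokinin B precursor, was the clearest member of a different kind. It read 147, 302 and 295 in NAc, 843, 753 and 1294 in BNST and 27.5, 26.6 and 21.4 in dStr. The 3 regions did not overlap, NAc lay near the middle at a position of 0.42, and the difference from the midpoint was 0.35 (SE 0.24, limma adjusted p = 0.999). The stress peptide gene Crh read 60, 203 and 135 in NAc, 648, 476 and 303 in BNST and 15.5, 27.1 and 15 in dStr, with a position of 0.48 and a difference of 0.09 (SE 0.32, adjusted p = 0.999).

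Projection neuron genes of the whole striatum had a NAc mean between the other means in 28 of 31 members, 1 called above (Pdyn) and 0 called below. Their median difference was 0.35. An intermediate NAc mean was not particular to this list, since 91.7% of the 2027 genes called between BNST and dStr had one. Over all genes tested, the NAc mean was above both others in 25% and below both in 18.3%. Drd2, the dopamine D2 receptor, read 249.5, 216 and 252 in NAc, 119.9, 66.4 and 75.3 in BNST and 697, 476 and 725 in dStr, at a position of 0.50 with a difference of 0.01 (SE 0.19, limma adjusted p = 0.999). Rgs9, a striatal regulator of G protein signalling, read 1013, 883 and 798 in NAc, 466, 279 and 336 in BNST and 2173, 2037 and 2423 in dStr, also at 0.50. Foxp1 was at 0.54 and Ppp1r1b, the DARPP-32 gene, at 0.55. The Ppp1r1b value moved with the arrays, since its difference ran from -0.06 to 0.56 with 1 array left out, and it was called without BNST 1 and NAc 1 (0.76, adjusted p = 0.044).

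Other striatal genes lay nearer the dStr mean, though none of them passed against the midpoint. Drd1, the dopamine D1 receptor, read 1873, 1622 and 1016 in NAc, 547, 121 and 275 in BNST and 1837, 1992 and 1876 in dStr, at a position of 0.86 (difference 1.00, SE 0.36, limma adjusted p = 0.6). Tac1, the substance P precursor, was at 0.98 (difference 0.89, SE 0.23, adjusted p = 0.25) and Foxp2 at 0.98 (difference 1.03, SE 0.24, adjusted p = 0.17). Penk, the enkephalin precursor, was at 0.89 with a difference of 0.47 (adjusted p = 0.88). Rasgrp2, an activator of Rap GTPases, and Actn2, an actin cross-linker, lay nearer BNST, both at 0.31, with differences of -0.65 and -0.48. Foxp2 was called without NAc 1 or BNST 1 (lowest adjusted p 0.04), and the other 5 were called in none of the 9 fits with an array left out.

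By pathway, direct pathway genes had 1 of 8 called above (Pdyn) with a median of 0.35, and indirect pathway genes 0 of 6 with a median of 0.03. The difference between these lists was not tested. Striosome genes had 1 of 10 called (Pdyn) with a median of 0.38, and matrix genes 0 of 8 with a median of 0.04.

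Neuropeptide and hormone genes had 2 of 32 called above the midpoint, Cartpt and Pdyn, and 0 below, with a median of 0.00. The cholecystokinin gene Cck read 50.9, 86.6 and 90.8 in NAc, 227, 109 and 234 in BNST and 158, 404 and 193 in dStr. All NAc arrays were below all others, but the spread in dStr was wide and the difference of -1.29 (SE 0.31) was not called (limma adjusted p = 0.18). Nts, the neurotensin precursor, read 294, 856 and 949.6 in NAc, 734 to 1176 in BNST and 56 to 301 in dStr. The NAc array at 294 lay within the dStr range, and those at 856 and 949.6 lay within the BNST range. The difference for Nts was 0.84 (SE 0.47, limma adjusted p = 0.999). Pnoc, the nociceptin precursor, read 48 to 48.9 in NAc, 135 to 172 in BNST and 37.5 to 46.2 in dStr, a difference of -0.63 (SE 0.11, adjusted p = 0.051).

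Receptor and channel lists had no called member. These were 28 neuropeptide receptor genes, 23 monoamine, acetylcholine, adenosine and cannabinoid receptor genes, 21 glutamate receptor genes, 14 GABA and glycine receptor genes and 28 voltage-gated potassium channel genes, with medians of 0.03, 0.03, 0.13, 0.12 and 0.19. The cannabinoid receptor gene Cnr1 read 274, 499 and 557 in NAc, 791, 425 and 437 in BNST and 1497, 1601 and 2189 in dStr, a difference of -1.15 (SE 0.26, limma adjusted p = 0.15). The serotonin receptor gene Htr4 read 81.9, 172 and 92.9 in NAc and 30.7 to 55.3 on the 6 other arrays, a difference of 1.12 (SE 0.22, adjusted p = 0.076, and 0.039 without NAc 1). All 3 NAc arrays were above all others for Htr4. In these 5 lists, with 114 members, 13 above and 1 below the midpoint had an unadjusted p under 0.05, against 3.6% of all genes above and 2.34% below.

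Cyclic nucleotide and G protein signalling genes had 1 of 51 called (Pde1a, above) and a median of 0.12. Axon guidance and synaptic organiser genes had 2 of 60 called, both above, Cbln4 and Robo1, and a median of 0.06. Ntn1, the netrin ligand, read 224, 219 and 239 in NAc, 184, 137 and 155 in BNST and 104, 132 and 93.9 in dStr. NAc was above all other arrays by a narrow spread, and the difference of 0.72 (SE 0.13) missed the threshold (limma adjusted p = 0.054, and 0.038 without BNST 1). The netrin receptor gene Unc5c read 421, 444 and 368 in NAc and 256 to 316 elsewhere, a difference of 0.51 (SE 0.12, adjusted p = 0.15).

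Forebrain transcription factor genes had 1 of 45 called above, Bcl11a, and 4 below, Otx2, Zic1, Sp8 and Onecut2, with a median of 0.04. The 4 below were of both kinds, since Otx2, Zic1 and Sp8 were high in BNST and Onecut2 in dStr. Imprinted genes had 1 of 37 called above, Dlk1, and 1 below, Asb4, with a median of 0.06. Magel2, an imprinted gene high in BNST, read 59, 133 and 115 in NAc, 519.6, 329 and 357 in BNST and 48.2 to 65.1 in dStr, at a position of 0.73 (difference -0.59, SE 0.22, limma adjusted p = 0.68). Interneuron and cholinergic genes had 0 of 13 called (median 0.04), retinoid signalling genes 0 of 15 (median -0.03) and olfactory tubercle and islands of Calleja markers 0 of 6 (median 0.57). Of these 6 markers, 4 above the midpoint and 1 below had an unadjusted p under 0.05, against 3.6% and 2.34% of all genes. Their members Sox11 and Dcx were called without NAc 1 (limma adjusted p = 0.039 and 0.046). Septal and extended amygdala markers had 1 of 13 called above, Dlk1, and 2 below, Zic1 and Sytl4, with a median of -0.25.

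Markers of other cells and neighbouring tissue had few called members apart from the ependymal genes. Cortical and claustral markers had 0 of 14 called above and 1 below, Nrgn, and thalamic and hypothalamic markers 1 of 18 above, Ramp3, and 1 below, Synpo2. Astrocyte, oligodendrocyte, microglia and endothelial markers had 0 called of 19, 21, 13 and 19, with medians of -0.12, -0.14, 0.05 and -0.09. An unadjusted p under 0.05 was reached in these 4 lists, with 72 members, by 1 above the midpoint and 3 below. The shares over all genes were 3.6% above and 2.34% below. The summed oligodendrocyte markers ran from 19928 to 28580 over the NAc arrays, against 24844 to 27031 in BNST and 23674 to 26609 in dStr. Gfap, the astrocyte filament gene, read 103, 175 and 206 in BNST, 38.2, 37.8 and 30.8 in NAc and 40.2, 38.4 and 24.5 in dStr, a difference of -0.84 (SE 0.20, limma adjusted p = 0.16, and 0.025 without BNST 1).

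Immediate early genes, which neuronal activity and handling raise, had 0 of 25 called and a median of -0.14, with 0 above and 3 below at an unadjusted p under 0.05. Over all genes the shares at that threshold were 3.6% above and 2.34% below. Egr2 read 158, 68.3 and 52.5 in NAc, 136, 72.4 and 88.5 in BNST and 614, 339 and 241 in dStr, a difference of -1.05 (SE 0.34, limma adjusted p = 0.49). Ier5 read 258, 175 and 168 in NAc, 306, 201 and 243 in BNST and 636, 512 and 582 in dStr, a difference of -0.89 (SE 0.17, adjusted p = 0.069, and 0.021 without NAc 1). Respiratory chain and cytosolic ribosomal protein genes had 0 called of 68 and of 41, with medians of 0.02 and 0.03.

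**Figure D5:**
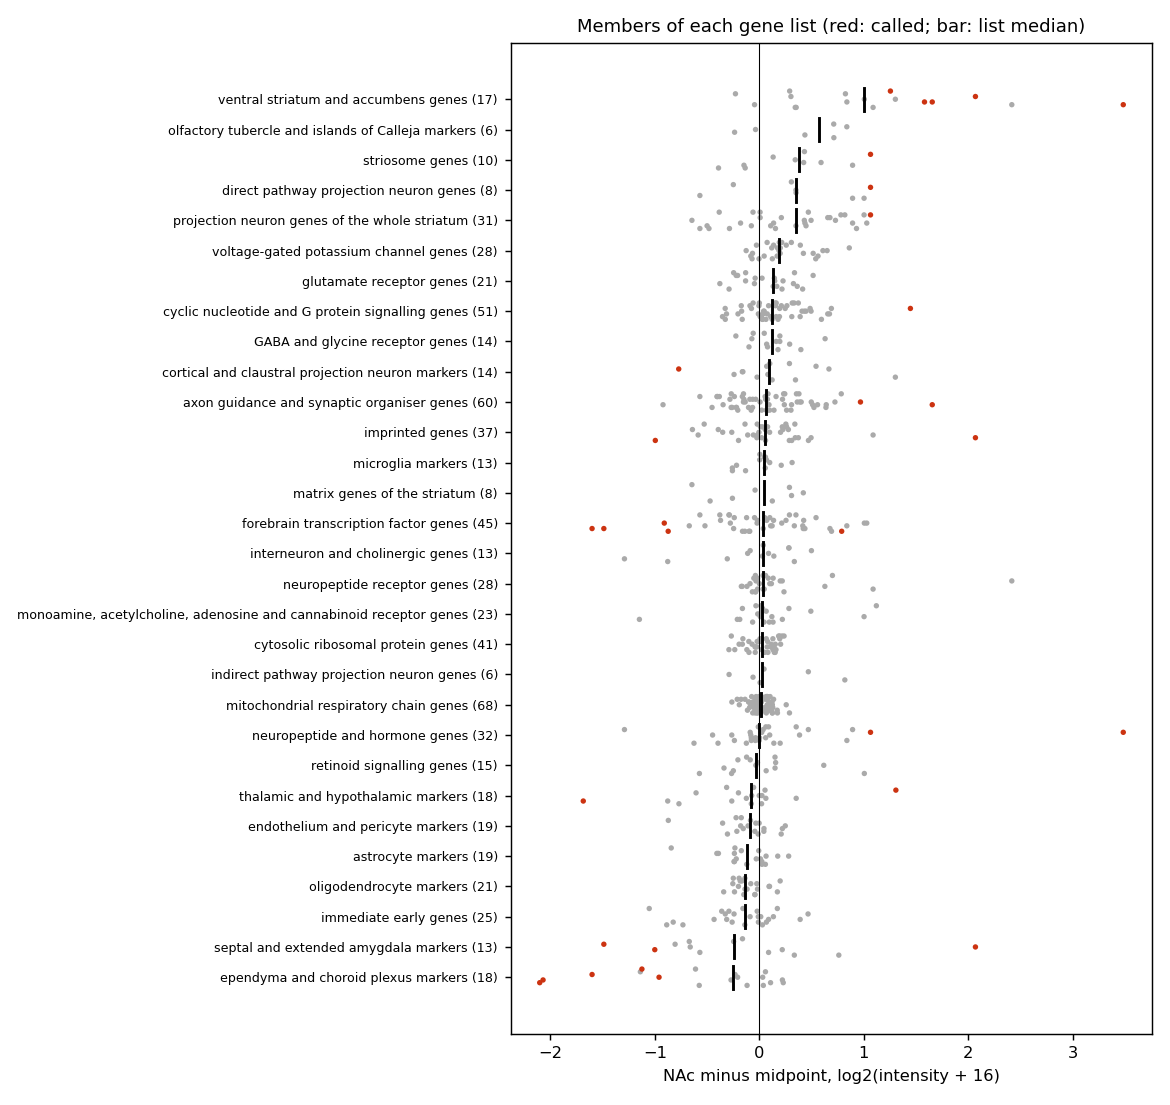
Difference of NAc from the midpoint, in log2(intensity + 16), for each tested member of the gene lists. Points are genes, spread vertically for visibility, with called genes in red, bars at the list medians and the number tested in brackets. The median of the ventral striatum and accumbens genes is 1.00, that of the ependyma and choroid plexus markers -0.25, and that of all tested genes 0.02.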

How the data were processed

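RNA from punches of BNST, NAc and dStr was read on 9 Affymetrix Mouse430_2 arrays, 3 per region, starting from 10 ng of total RNA that was amplified before labelling, per the labels' protocols. The deposited table holds linear intensity values for 45037 probe sets, which the authors summarised and scaled by a method not given in the sources used here, with low signals set to 15. The deposited scaling was kept. Of the probe sets, 34945 had 1 gene symbol in GEO's platform annotation, 932 several and 9160 none, and only the first were used for genes.

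Values were taken as log2(value + 16). The filter kept probe sets that on at least 3 of 9 arrays exceeded that array's 40th percentile, and the brightest kept probe set stood for a gene. This left 14208 genes, and 5897 had more than 1 kept probe set. A linear model with a mean per region over all 9 arrays was fitted with limma 3.58.1 in R 4.3.3 (6 residual degrees of freedom), with the contrast NAc minus the equally weighted mean of BNST and dStr, and with NAc minus BNST, NAc minus dStr and BNST minus dStr beside it. Tests were 2-sided and moderated, with Benjamini-Hochberg adjustment over the 14208 genes within each contrast and a threshold of 0.05. Gene lists were not tested as sets. The members and lists were chosen with earlier results of these data known.

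Named genes were the 15 largest differences per direction among those called, up to 4 called members per list and direction, and 8 per direction among those past both pairwise tests. List-defining members may be given whether called or not. Genes named outside this rule, where all members of a group are given or where a gene is set beside a related one, were chosen after their values were seen. Promoter windows came from a RefSeq table of build GRCm38.p6. On simulated data of 14208 genes for this contrast, the test called 78% of 100 genes changed by 1 (log2) and 98% of 100 changed by 2, and 7 of its 183 calls were false. The simulation drew independent noise for each gene and array and changed only genes above the median level. It had no lowest value and no array deviations shared across genes, so these rates need not hold for the real arrays. Alternatives covered scaling, filter, probe-set summary, pseudocount, prior, replicate block, left-out arrays, the weights of the midpoint and a midpoint over intensities. The number of arrays limits the precision.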

Additional observations from a re-analysis of the deposited data

Results flagged for a closer look

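Probe sets with no or several gene symbols were tested apart from the genes, since they entered none of the comparisons above. Of 5470 that passed the filter, 4 were called against the midpoint (0.0731%), and 291 had an unadjusted p under 0.05. Probe set 1439711_at read 513, 679 and 468 in NAc, 238, 200.2 and 188 in BNST and 91, 80.2 and 66.3 in dStr, a difference of 1.95 (limma adjusted p = 0.0007), with NAc above both regions. Probe set 1447342_at read 455, 487 and 416 in NAc, 348, 245 and 258 in BNST and 139, 188 and 171 in dStr, a difference of 1.01 (limma adjusted p = 0.047). Probe set 1437397_at was near the lowest value in NAc and dStr and read 131, 107 and 112 in BNST, a difference of -1.04 (limma adjusted p = 0.004). Probe set 1438466_at read 36.9, 34.7 and 30.6 in NAc, 104, 109.7 and 107 in BNST and 39.8, 38.9 and 36 in dStr, a difference of -0.71 (limma adjusted p = 0.047). They are given by probe set, with no gene name.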

How the results depend on the processing

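Against 55 called genes, the count was 26 with no filter, 13 with a replicate block, 31 with an absolute log2 difference of at least 1, 319 with BNST 1 and NAc 1 left out together, and 2 to 80 with 1 array left out. The genes above or below both regions (46) numbered 18 with no filter, 9 with the block, 241 with both arrays left out and 2 to 62 with 1 array left out. Those past both pairwise tests (11) numbered 19 after quantile normalisation, 17 after median centring, 7 with no filter, 4 with the block, 81 with both arrays left out and 1 to 19 with 1 left out. Those with NAc between the other regions (9) numbered 3 with the filter at the 60th percentile, 14 with the mean of probe sets, 18 with the midpoint over intensities, 4 with the block, 78 with both left out and 0 to 18 with 1 left out. The cause was not tested. With the midpoint over intensities, 44.4% of 63 calls were above it, against 54.5% of 55. Weights of 2 to 1 and of 1 to 2 for BNST and dStr each gave 81 calls, of which 39 and 45 were among the 55. None of the 55 called genes reversed in 1090 gene and setting pairs, and 13 of them lost the call with the midpoint over intensities, 8 with the mean of probe sets and 11 with a constant of 64. Of 46 uncalled genes followed, 4 changed sign with 1 array left out (Drd2, Rgs9, Ppp1r1b and Foxp1). Of 570 list medians recomputed, 33 moved and 36 changed sign. Same-numbered arrays deviated together in 2 of 9 pairs (r from -0.51 to 0.26, over 0.1 counted), so the numbers were not taken to pair the samples, and the blocked count of 13 is given for this reason only here. Signals near the lowest value of 15 limit differences at genes that a region lacks.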
